A study of Mus musculus with 8 samples.

Results

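Primary c-kit+/CD45+ cells grown from mouse left atrial appendage were set against left ventricular wall on whole-genome expression arrays. The comparison takes the 2 arrays of CD45-positive cells and the 2 arrays of ventricle out of 8 arrays in all, chosen by their sample titles, and uses every one of the 55681 non-control probes, which carry 34741 gene names. The CD45-positive cells came from C57BL/6 mice 8 to 12 weeks old: the appendages were digested 3 times for 5 min with 0.05% trypsin and 0.1% collagenase D, the weaker of the study's enzyme treatments, the tissue pieces were cultured in a serum-containing Iscove's medium, and the primary cells were sorted for c-kit and CD45. The ventricle samples were biopsies of the left ventricular wall of C57BL/6 mice 12 weeks old, with no culture or sort given in the labels. The other 4 arrays, used for the estimate of error and for a few levels below, hold 2 samples of c-kit+/CD45- cells from the same kind of culture after the stronger digestion with 0.25% trypsin, and 2 samples of passage 8 cells derived from c-kit+/CD45+ cells. Whether the 2 replicates of a group are different animals or cultures is not stated in the labels, and the p-values cover the spread among these arrays alone, part of which may be technical. The groups differ in chamber, in culture, in sorting and in the RNA kit (High Pure for cells, Tri-reagent for tissue), and these cannot be told apart here.

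As background, CD45 is a surface phosphatase of nearly all white blood cells, and c-kit is the receptor for stem cell factor, carried by blood progenitors, mast cells and melanocytes. Macrophages are tissue phagocytes that take up debris through surface receptors, degrade it in acid lysosomes and signal through chemokines and cytokines. The adult heart holds macrophages seeded in the embryo and others derived from blood monocytes. Ventricular wall is dominated by the RNA of cardiomyocytes, which is rich in sarcomere transcripts and in those of mitochondrial fuel oxidation, with endothelial cells, fibroblasts, mural cells and macrophages between them.

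All 8 arrays were on 1 slide and in 1 scan. Values are log2 of the scanner's processed signal minus the log2 of that array's 75th percentile, which was 839.02 and 897.01 signal units for the CD45-positive cells and 600.23 and 569.41 for the ventricle, so 0 marks the 75th percentile of an array. Between 55.056% and 63.044% of probes were well above background on these 4 arrays, and none was saturated. Differences are CD45-positive cells minus ventricle. Where 1 of the 2 arrays of the dimmer group was well above background, the other array's value is only an upper limit, and the difference given is approximate. The SD of the difference between replicates over the 23067 genes tested was 0.377 for CD45-positive cells and 0.601 for ventricle, against 1.014 for the CD45-negative cells, whose spread enters the pooled error.

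The 2 ventricle samples stood apart in a set of genes, and this touches several results. Ventricle replicate 2 carried much more RNA of genes typical of atrial muscle: Myl7, the atrial regulatory light chain, read -2.55 and 5.21 in ventricle replicates 1 and 2, Myl4, the atrial essential light chain, 0.72 and 7.76, and Mybphl, an atrial myosin-binding protein, -4.45 and 2.15. It was also higher for Cfd, the adipocyte protein adipsin (0.17 and 3.31), and for Nr4a1, an immediate early nuclear receptor (1.88 and 5.65). Replicates more than 2 log2 units apart numbered 262 of the 23067 genes in ventricle (1.14%) and 79 in CD45-positive cells (0.342%). Sex-linked RNA differed as well, and the labels give no sex. All 7 probes for Xist, the RNA that coats the inactive X chromosome of females, were well above background on both CD45-positive arrays (-0.58 to 3.94), and 6 of the 7 on neither ventricle array, while the Y-linked Ddx3y was well above background in both groups (1.16 and 1.40 in the cells, 1.88 and 2.58 in ventricle). Sex composition and group cannot be told apart in these samples.

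The sort genes came first as a check of the labels, and they are no finding. Ptprc, which encodes CD45 (probe at mm9 chr1:139961083-139961142, minus strand), read 2.04 and 1.93 in the CD45-positive cells and -2.33 and -2.89 in ventricle, 24.2-fold higher (log2 difference 4.59, SE 0.69, adjusted p = 0.00351). Its mean was -4.43 in the CD45-negative cells and -5.37 at passage 8. Kit (chr5:76052394-76052453, plus strand) read -3.57 and -3.33 in the cells and -1.48 and -2.48 in ventricle. The Kit difference of -1.47 (SE 1.44) did not pass (adjusted p = 0.443), and in a fit of the 4 arrays alone it passed as lower (adjusted p = 0.0448), so no Kit transcript above that of ventricle was measured in the cells labelled c-kit+.

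Of the 6 marker genes, 4 were higher in the CD45-positive cells and 2 were higher in ventricle. Gpnmb, a membrane glycoprotein of phagocytes and pigment cells (mm9 chr6:49006386-49006445, plus strand), read 8.45 and 8.40 against -4.30 and -1.92, a 2972-fold difference (log2 11.54, SE 1.81, adjusted p = 0.00403). Adam8, a leukocyte membrane protease (chr7:147164873-147164932, minus strand), read 8.12 and 8.14 against -1.81 and -1.85, a log2 difference of 9.96 (SE 1.30, adjusted p = 0.0021). Clec4d, a C-type lectin receptor for mycobacterial glycolipid (chr6:123224788-123224847, plus strand), read 5.92 and 5.88 against -3.64 and -2.68 (log2 9.06, SE 1.69, adjusted p = 0.00767). In all 3 the groups were separated by far more than the gap between replicates.

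Arg1, which encodes arginase and competes with nitric oxide synthase for arginine (chr10:24636194-24636253, minus strand), read 6.48 and 6.40 in the cells and was not well above background on either ventricle array. For such a gene the dim side has only a bound, so the difference is given as at least N-fold, against the lowest signal well above background on those arrays. The bound holds for the scanner's processed signal as scaled here. For many such genes other processing gave a difference smaller than the bound. Arg1 was at least 2700-fold higher (adjusted p = 0.00286). Lyve1, a hyaluronan receptor of lymphatic endothelium and of a class of resident macrophages (chr7:117994171-117994230, minus strand), read -4.51 and -4.46 against 1.19 and 0.32 in ventricle, 37.8-fold lower (adjusted p = 0.0102), a call kept in 1 of 4 fits that each left out an array of the 2 groups. Myh6, the adult cardiac alpha myosin heavy chain (chr14:55560774-55560833, minus strand), read -4.03 and -4.15 against 9.72 and 9.38, 12740-fold lower (log2 -13.64, SE 0.52, adjusted p = 8.56e-05).

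**Figure D1:**
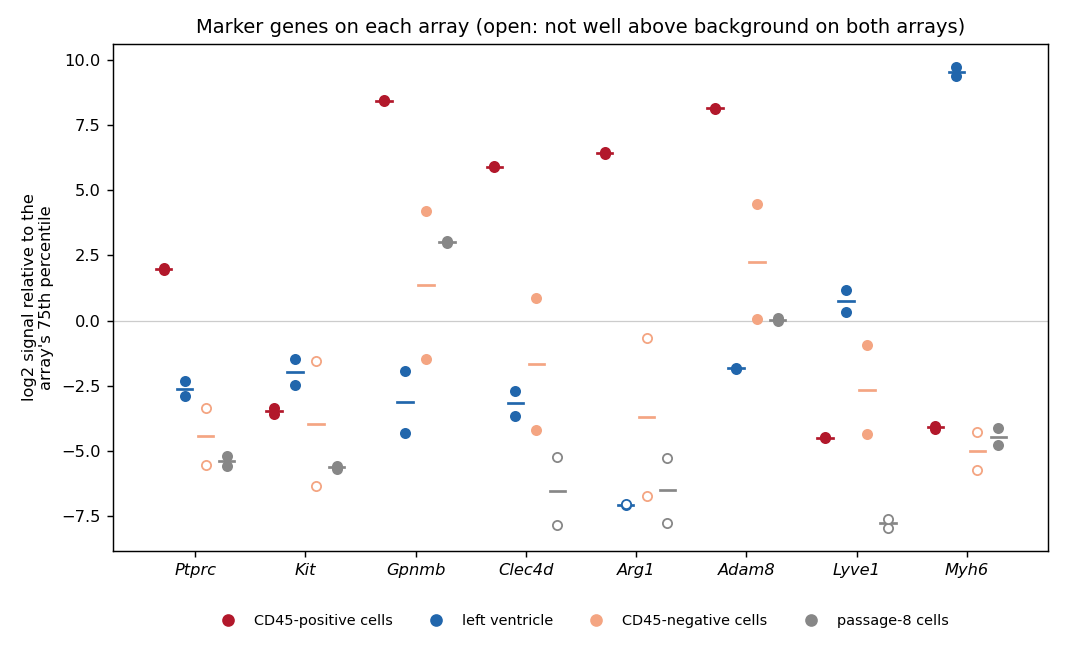
Log2 signal relative to the array's 75th percentile for the sort genes Ptprc and Kit and the 6 marker genes in all 4 groups; each point is 1 array, an open point a group not well above background on both arrays, and a bar the mean of the 2 arrays. Gpnmb, Adam8, Clec4d and Arg1 read 5.88 to 8.45 in the CD45-positive cells and below 0 in ventricle, and Myh6 read 9.72 and 9.38 in ventricle and -4.03 and -4.15 in the CD45-positive cells.

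Over the whole array the CD45-positive cells and the ventricle were far apart. Of the 23067 genes tested, each well above background on both arrays of the cells or both arrays of ventricle, 4225 rose (18.3%) and 4574 fell (19.8%), so 38.1% passed in either direction at an adjusted p under 0.05 (limma with Benjamini-Hochberg adjustment) and a log2 difference of at least 1. The median difference was -0.02. A difference of 10-fold or more was called for 916 higher and 1361 lower genes, and one of 100-fold or more for 100 and 301. The calls kept in all 4 fits that left out 1 array were 2415 higher and 2773 lower. With shares of this size the count of any gene group has to be read against 18.3% and 19.8%. In bulk RNA, fewer cells of a type and less RNA of a gene per cell cannot be told apart.

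Among genes above background on all 4 arrays, the 15 that rose most were led by Gpnmb, Adam8 and Clec4d. Nrcam, a neuronal cell adhesion molecule, read 4.48 and 4.55 against -4.68 and -4.24 (log2 8.97, adjusted p = 0.000324). The serotonin receptor Htr2b read 4.40 and 4.49 against -4.30 and -2.56, Hpse, the heparan sulfate cleaving heparanase, 4.69 and 4.60 against -3.34 and -2.77, and Ch25h, which makes the oxysterol 25-hydroxycholesterol, 4.04 and 3.96 against -3.61 and -3.51. The rest of these 15 were Wfdc17, Cd72, Ccl7, Lgals3, Mmp3, Trem2, Mpeg1 and Ms4a7, with log2 differences between 7.54 and 8.03. Genes with only a bound in ventricle included Rgs1, a regulator of G protein signalling in leukocytes (at least 1046-fold higher), and Npy, the appetite peptide neuropeptide Y (at least 651-fold higher). These lists mix phagocyte genes with genes best known from neurons.

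At the other end stood the muscle genes Myh6, Myl3, Myl2, Cox8b, Slc2a4, Tnni3, Mybpc3, Tnnc1, Lrrc10, Popdc2, Sh3bgr, Nppa and Srl, with log2 differences between -13.64 and -9.37. They were joined by Ptgds, the lipocalin-type prostaglandin D synthase, at -3.98 and -4.55 in the cells and 6.81 and 7.85 in ventricle (log2 -11.60, adjusted p = 0.00152), and by the red cell gene Hba-a2, at -1.62 and -2.04 against 9.39 and 8.66. Hba-a2 is a near-identical copy of Hba-a1, and the array probes may not separate them.

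Genes of macrophages and monocytes rose as a group. Of 30 such genes 27 rose and 1 fell, with a median difference of 5.15, beside 18.3% higher and a median of -0.02 over all genes tested. With 1 array left out the count of higher genes was 15 to 17, and in a fit of the 4 arrays alone it was 29. The summed signal of the 30, in multiples of the array's 75th percentile signal, was 2057 and 2001 in the CD45-positive cells, 147.8 and 132.9 in ventricle, 65.85 and 157.3 in the CD45-negative cells, and 37.41 and 38.28 at passage 8. The ventricle thus carried macrophage RNA of its own, and 28 of the 30 genes were above background in it. Its sums include the probe chosen for Itgam, which was bright in ventricle and, as given below, goes against the gene's other probes. The size of the ventricle sums therefore rests in part on that choice of probe.

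Mpeg1, which encodes the pore-forming perforin-2 of phagocytes, read 7.36 and 7.43 against -0.69 and 0.28 in ventricle, 194-fold higher (log2 7.60, SE 1.37, adjusted p = 0.0068). Cd68, a glycoprotein of the late endosome, read 7.76 and 7.82 against 1.13 and 1.30, 95.2-fold higher (SE 1.14, adjusted p = 0.00581). Marco, a scavenger receptor for bacteria, read 4.36 and 4.23 against -3.15 and -3.10, 171-fold higher (log2 7.42, SE 0.61, adjusted p = 0.00047). Each of these 3 calls was kept in all 4 fits that left out an array. Ms4a7, a tetraspan protein of macrophages, read 7.46 and 7.30 against -0.03 and -0.29 (log2 7.54, adjusted p = 0.00816), and C1qb, a chain of the complement starter C1q, 6.75 and 6.73 against 1.97 and 1.28 (log2 5.12, SE 0.94, adjusted p = 0.00728).

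Other macrophage genes had firm levels in the cells and less certain calls. The following 3 were named after their values were seen. Adgre1, which encodes the F4/80 antigen, read 5.99 and 5.90 against 0.20 and 0.20 (log2 5.74, SE 1.62, adjusted p = 0.0324), Tyrobp, the signalling adaptor DAP12, 7.44 and 7.45 against 2.04 and 1.76 (adjusted p = 0.0272), and Csf1r, the receptor for the growth factor that sustains macrophages, 7.20 and 7.19 against 4.61 and 4.34 (log2 2.72, SE 0.83, adjusted p = 0.0415). None of these 3 calls was kept in any of the 4 fits that left out an array. Mrc1, the mannose receptor CD206, read 5.72 and 5.76 against 2.19 and 1.65 and did not pass (adjusted p = 0.0775), nor did Cx3cr1, the fractalkine receptor, at 2.86 and 2.88 against 0.66 and -1.47 (adjusted p = 0.0522). The pooled errors of these genes include the CD45-negative replicates. In a fit of the 4 arrays alone 29 of the 30 macrophage genes passed as higher, and all genes of this paragraph were among them.

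The exception in this group was Itgam, the integrin chain CD11b, whose probe read 4.31 and 4.29 in the cells and 5.82 and 5.90 in ventricle (log2 -1.56, SE 0.20, adjusted p = 0.00187). The other probes of Itgam went the opposite way: averaged over all its tested probes, the difference was 1.677 and passed as higher. Its direction therefore rests on the choice of probe.

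The genes that mark resident and monocyte-derived macrophages of the heart split. Of 19 resident macrophage genes tested 6 rose and 4 fell, and of 15 monocyte-derived genes 9 rose and 2 fell, with medians of 1.94 and 3.58. In a fit of the 4 arrays alone 11 rose and 4 fell in the first group, and 9 rose and 3 fell in the second. The contrast in counts between the classes thus depends on the arrays used for the error. Leaving out an array gave 4 to 5 higher and 3 to 4 lower genes in the first group and 7 to 8 higher in the second. Igf1, the growth factor made by resident macrophages and stromal cells, read 5.21 and 5.19 against 0.30 and -0.05 (log2 5.07, SE 0.23, adjusted p = 0.000112). Pf4, a chemokine also stored in platelets, read 7.45 and 7.40 against 3.61 and 2.32, and Gas6, the ligand that bridges dying cells to the receptor Mertk, 7.92 and 7.29 against 4.65 and 4.23. The remaining 3 that rose were Maf, Vsig4 and Colec12.

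The 4 that fell were Lyve1, Cd163, Cd209f and Ccl24. Cd163, the haemoglobin scavenger receptor, was not well above background in the cells and read -2.86 and -3.04 in ventricle, at least 5.29-fold lower (adjusted p = 0.000492). Ccl24, an eosinophil chemokine, was at least 26.6-fold lower and Cd209f, a lectin receptor, at least 11.8-fold lower. Folr2, a folate receptor of resident macrophages, read 3.08 and 3.07 against 1.58 and 0.68 and did not pass (adjusted p = 0.165). Cbr2, a carbonyl reductase, read 3.90 and 3.71 against 3.92 and 2.83 (adjusted p = 0.759). Timd4 was not well above background in either group and was not tested. Within 1 marker class, then, transcripts of Igf1 and Pf4 were high and those of Lyve1 and Cd163 were near or below background.

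On the monocyte-derived side S100a4, a calcium-binding protein of motile cells, read 7.30 and 7.19 against 1.89 and 1.54 (log2 5.53, SE 0.21, adjusted p = 9.11e-05). Its mean in the CD45-negative cells was 8.12, so it was not limited to the CD45-positive sort. Fn1, fibronectin, read 8.06 and 7.97 against 3.15 and 3.46, with a mean of 9.03 in the CD45-negative cells. Il1b, the fever cytokine interleukin-1 beta, was at least 28.6-fold higher than in ventricle, at -0.09 and -0.15. Ccr2, the chemokine receptor that draws monocytes out of marrow, went against the group at -4.07 and -4.20 in the cells and -2.38 and -2.24 in ventricle (adjusted p = 0.0739 in the 8-array fit, 0.00417 in the fit of 4 arrays). Chil3, a chitinase-like protein of alternatively activated macrophages, fell.

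Of 24 genes of lipid-laden macrophages 19 rose and 2 fell, with a median of 2.68, and 15 to 18 rose with an array left out. Spp1, which encodes osteopontin, read 8.18 and 7.98 in the cells and -6.36 and -4.42 in ventricle, where 1 array measured it (log2 13.47, SE 0.73, adjusted p = 0.000167). Its mean was 4.41 in the CD45-negative cells and 1.96 at passage 8. Lgals3, the sugar-binding galectin-3, read 8.53 and 8.29 against 0.31 and 0.83 (log2 7.84, SE 0.40, adjusted p = 0.000154). Trem2, a lipid-sensing receptor that signals through Tyrobp, read 7.81 and 7.99 against 0.37 and 0.13 (log2 7.65, SE 1.14, adjusted p = 0.00343). Itgax, the integrin chain CD11c, read 5.39 and 5.48 against -4.89 and -4.65, with 1 ventricle array above background.

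The 2 genes of this list that fell are also expressed in muscle or fat. Lpl, the lipase that frees fatty acids from lipoproteins, read 5.23 and 5.19 in the cells and 8.64 and 8.70 in ventricle (log2 -3.46, adjusted p = 0.00131), and Fabp4, a fatty acid carrier of adipocytes, capillaries and macrophages, 5.44 and 5.22 against 7.22 and 7.91. Cd36, the fatty acid translocase, read 2.86 and 2.99 against 5.30 and 5.93 without passing (adjusted p = 0.263). Lipa, the lysosomal acid lipase, rose from -0.26 and -0.15 in ventricle to 4.55 and 4.01. The gene for the oxysterol receptor Nr1h3 showed a difference of -0.26 that did not pass.

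Of 11 genes of osteoclasts and fused giant cells 8 rose, 6 to 7 with an array left out, and none fell. Atp6v0d2, a proton pump subunit of bone-resorbing cells that is needed for cell fusion, read 3.70 and 3.66 and was not well above background in ventricle, at least 399.5-fold higher. Acp5, tartrate-resistant acid phosphatase, read 4.85 and 4.79 against -0.23 and 0.08 (log2 4.89, SE 0.29, adjusted p = 0.000191). Ctsk, the collagen-cleaving protease cathepsin K, read 6.46 and 6.47 against 0.76 and 1.35. Nfatc1, the transcription factor of osteoclast commitment, differed by 0.57 and did not pass (adjusted p = 0.242). Ocstamp and Oscar, a fusion protein and an osteoclast receptor, did not pass either. The genes that rose included enzyme genes of bone resorption. They also included the integrin gene Itgb3 and Dcstamp, another gene of cell fusion. Nfatc1, Ocstamp and Oscar showed no called difference.

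Enzymes of macrophage activation rose in part. Of 17 tested 11 rose and 2 fell, and with an array left out 4 to 7 rose. Ptgs2, the inducible cyclooxygenase, read 1.23 and 1.45 against -6.08 and -4.05, with 1 ventricle array above background (log2 6.40, adjusted p = 0.00133), and Alox5ap, which helps make leukotrienes, 5.80 and 5.80 against 1.34 and 0.94. The NADPH oxidase genes Cybb and Ncf4 rose by 4.55 and 5.03. For Cybb the call was lost in each fit that left out an array.

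Arginase and its partners did not move together. Beside Arg1 at 6.48 and 6.40, Retnla, a secreted marker of alternative activation, read -7.82 and -4.31 in the cells, with 1 array above background, and 2.50 and 2.39 in ventricle (adjusted p = 0.00183); the difference of about -8.52 was -6.76 and -10.27 with either array of the cells left out. Chil3 read -5.31 and -5.23 against -1.35 and -1.01 (adjusted p = 0.00016), with 1 of the cell arrays above background. Nos2, the inducible nitric oxide synthase, read 0.38 and 0.21 against 1.54 and 0.95, a difference of -0.95 below the fold limit. Hmox1, which degrades haem, read 6.48 and 3.11 in the replicates of the cells and -0.70 and 2.31 in ventricle, and its spread left it short of the threshold (adjusted p = 0.063).

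Receptors for antibodies and microbial products were higher in part. In the Fc receptor and ITAM signalling group 19 of 24 genes rose and none fell (median 4.84, 9 to 11 higher with an array left out, 22 in the fit of 4 arrays). Among myeloid C-type lectin receptors 8 of 15 rose and none fell (median 3.58, or 2.47 with genes at their bounds, 3 to 4 with an array left out, 11 in the fit of 4 arrays). Of 24 genes of Toll-like receptors and the inflammasome 18 rose and none fell (median 3.13, or 2.62 at the bounds, 14 to 16 with an array left out).

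Fcgr4, an activating receptor for IgG, read 2.86 and 2.97 in the cells against -4.32 and -4.99 in ventricle, where 1 array measured it (log2 7.57, SE 0.53, adjusted p = 0.000309). Fcgr2b, the inhibitory IgG receptor, read 5.19 and 5.12 against -0.95 and -0.67 (adjusted p = 0.0189, lost in each fit that left out an array). Clec4e, the Mincle receptor that pairs with Clec4d, read 2.31 and 2.44 and was at least 162-fold higher. Clec4n, the Dectin-2 receptor for fungal mannan, read 6.00 and 5.98 against -0.06 and -0.34 (log2 6.19, adjusted p = 0.00723). Clec10a, a galactose lectin, differed by -0.61 without passing (adjusted p = 0.26).

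Among Toll-like receptors Tlr13, a sensor of bacterial ribosomal RNA, read 5.47 and 5.53 against 0.44 and 0.01 (log2 5.28, adjusted p = 0.00283), and Tlr6, a partner of Tlr2 for lipopeptides, 1.26 and 1.22 against -3.92 and -3.32. Tlr1 and Cd180 were at least 30.6-fold and 26.1-fold higher. Tlr4, the receptor for bacterial lipopolysaccharide, differed by 0.96 and did not pass (adjusted p = 0.088), and neither did Tlr3, Tlr7 or Tlr9, which sense nucleic acids inside endosomes.

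PU.1, encoded by Spi1, is a transcription factor of myeloid cells whose target genes include many Fc receptors. Among these genes Fcgr4 had the largest difference with the letters GAGGAAGT, a PU.1 site searched on both strands (the capitals are the other strand's letters), in the 210 bases before its start. The window (RefSeq, GRCm38.p6 chr1:171018716-171018925, plus strand) is printed 5′ to 3′ with the match in capitals, at -24 to -17 from the start.
Fcgr4: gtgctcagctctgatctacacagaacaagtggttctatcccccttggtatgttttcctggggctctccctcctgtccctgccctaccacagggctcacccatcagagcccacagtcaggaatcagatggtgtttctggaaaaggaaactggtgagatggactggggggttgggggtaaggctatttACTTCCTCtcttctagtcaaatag
Promoter windows of 300 bases, from 250 before to 50 after a start, were searched for each list, and a gene can have several. The PU.1 letters were found in 4 of 26 windows of macrophage genes (15.4%), in 4 of 21 windows of Fc receptor genes (19.0%) and in 4 of 23 windows of Toll-like receptor genes (17.4%), beside 3.2% of all 32851 windows. The macrophage genes were C1qc, Cd53, Pld4 and Fcgr4, all of which rose. Of the 4 Fc receptor and signalling genes Fcgr4 and Vav1 rose and Inpp5d and Pirb did not pass, and of the 4 Toll-like receptor and inflammasome genes Tlr1 and Pycard rose and Tlr9 and Aim2 did not pass. The letters were also found in 3 of 18 windows of leukocyte integrin and actin regulator genes (16.7%) and in 4 of 34 windows of lysosomal genes (11.8%). In the other lists searched they were found in 0% to 6.0% of windows. A match of letters is a description and no measured binding site.

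Chemokine and cytokine genes were mostly higher. Of 23 chemokines 16 rose and 3 fell (median 3.53, 14 to 15 higher with an array left out), and of 27 cytokines and growth factors 16 rose and 4 fell (median 2.49, or 1.86 with genes at their bounds). Ccl2, the monocyte attractant, read 6.32 and 6.37 against -0.70 and -1.38 (log2 7.39, SE 0.28, adjusted p = 8.52e-05), and Ccl7, a relative with the same receptor, 5.50 and 5.45 against -1.55 and -3.31 (log2 7.91, SE 0.59, adjusted p = 0.000361). Their means in the CD45-negative cells were 5.40 and 4.25, well above ventricle too. Ccl3 and Ccl4, attractants of monocytes and T cells, read 4.36 and 4.39, and 4.77 and 4.64, and were not well above background in ventricle, at least 626.4-fold and 770.7-fold higher. Ccl11, an eosinophil attractant, was at least 21.4-fold lower, and Ccl24 and Cxcl9 fell as well.

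Il6, a cytokine of acute inflammation, read 3.88 and 3.92 and was at least 465-fold higher than in ventricle, with a mean of 4.05 in the CD45-negative cells. Gdf15, a stress-induced member of the TGF-beta family, read 5.00 and 5.03 against -0.24 and -0.98 (log2 5.63, adjusted p = 0.000332). Osm, Tnf and Hgf were at least 33.5-fold, 17.8-fold and 13.1-fold higher. The angiogenic factors Vegfa, Vegfb and Fgf1 did not rise: Vegfa differed by 0.43 without passing (adjusted p = 0.319), Vegfb read 1.93 and 2.13 against 4.64 and 4.28 in ventricle and fell by 2.43, and Fgf1 read -2.75 and -2.44 against 5.61 and 5.05 (log2 -7.93, SE 0.71, adjusted p = 0.000621). Pdgfa and Pdgfb did not pass.

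Of 15 chemokine receptors 8 rose and 2 fell, 4 to 5 higher with an array left out. Ccr1, a receptor for Ccl3, read -0.64 and -0.54 and was at least 20.7-fold higher. Ackr3, a scavenging receptor for Cxcl12 on endothelial and stromal cells, read -0.82 and -0.81 against 3.75 and 4.75 (log2 -5.06, adjusted p = 0.000753), and Ccr7, which guides dendritic and T cells to lymph nodes, was at least 5.59-fold lower. The cells thus had RNA for Ccl3 and for its receptor Ccr1 on the same arrays.

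Genes of antigen presentation by MHC class II had no common direction. Of 14 genes 5 rose and 2 fell, with a median of 0.63, and with an array left out 2 to 4 rose and none fell, and in the fit of 4 arrays 6 rose and 5 fell. H2-Eb1, a class II beta chain, read 1.18 and 1.24 in the cells and 3.80 and 3.52 in ventricle (log2 -2.45, adjusted p = 0.0128), and Cd74, the invariant chain, 0.29 and 0.44 against 1.77 and 1.93 (log2 -1.49, adjusted p = 0.0215), and both calls were lost in each fit that left out an array. H2-Ab1 read 2.83 and 2.92 against 3.74 and 3.31 without passing (adjusted p = 0.418). Those that rose were Ctss, Ifi30, Cd40, Cd80 and H2-DMb1, a chain of the peptide-loading class II molecule. Ctss, the protease that trims the invariant chain, read 8.46 and 8.26 against 1.83 and 1.72 (log2 6.58, adjusted p = 0.0221), and Ifi30, a lysosomal thiol reductase, 4.32 and 4.39 against 0.52 and 0.41.

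Of 20 complement genes 8 rose and 2 fell (4 to 5 and 1 to 2 with an array left out), with a median of 0.11 that turned to -0.21 without ventricle replicate 1. The genes for the C1q chains A, B and C rose by 5.10, 5.12 and 4.74. C3, the central complement protein, read 5.25 and 5.35 against 5.47 and 5.58 and did not pass (adjusted p = 0.628). Cfd read -3.94 and -3.12 against 0.17 and 3.31 (adjusted p = 0.00999), a gene in which the ventricle replicates were apart.

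The lysosome rose nearly as a whole. Of 35 genes for lysosomal enzymes and membrane proteins 33 rose and none fell, with a median of 2.86, and 28 to 30 rose with an array left out. Of 17 subunits of the V-ATPase, the pump that acidifies the lysosome, 14 rose and none fell (median 1.86, 13 to 14 with an array left out). Ctsz, the carboxypeptidase cathepsin Z, read 7.27 and 7.28 against 2.67 and 2.60 (log2 4.64, SE 0.18, adjusted p = 9.32e-05). Its mean was 5.18 in the CD45-negative cells and 5.19 at passage 8, above ventricle in both. The 2 lysosomal genes that did not pass were Lamp2, a membrane glycoprotein at 5.18 and 5.30 against 4.29 and 4.53, and Gla, alpha-galactosidase, with a difference of -0.42.

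Tcirg1, the pump subunit of osteoclasts and macrophages, read 4.44 and 4.64 against -0.27 and 0.19 (log2 4.58, adjusted p = 0.000189). The widely expressed subunit Atp6v1a, which binds ATP, read 5.26 and 5.23 against 1.89 and 2.02 (log2 3.29). Atp6v1g1, Atp6v1d and Atp6v1e1 differed by 0.80, 0.35 and 0.28 and did not pass. With Atp6v0d2, the differences thus ran from more than 100-fold in a restricted subunit to less than 2-fold in these 3.

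Transcription factors of the Tfeb and Mitf family bind the E-box CACGTG in promoters of lysosomal genes. Naglu, alpha-N-acetylglucosaminidase, read 4.90 and 4.97 against 0.42 and 0.87 (log2 4.29, SE 0.24, adjusted p = 0.000186). It had the largest difference among lysosomal genes with this E-box in the 210 bases before the start, and is shown for that (RefSeq, GRCm38.p6 chr11:101069884-101070093, plus strand, match in capitals at -73 to -68).
Naglu: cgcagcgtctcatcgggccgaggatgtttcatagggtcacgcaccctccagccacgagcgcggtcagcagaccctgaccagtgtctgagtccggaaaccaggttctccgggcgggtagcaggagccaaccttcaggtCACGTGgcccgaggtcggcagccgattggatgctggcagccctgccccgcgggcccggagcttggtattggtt
CACGTG, which reads alike on both strands, was found in 9 of 34 windows of lysosomal genes (26.5%) and in 4 of 16 of V-ATPase genes (25.0%), beside 7.15% of all windows. The 9 were Ctsa, Ctsd, Ctsl, Lamp1, Gla, Glb1, Naglu, Lgmn and Mcoln1. One of them, Gla, showed no called difference.

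Proteases and adhesion molecules rose broadly. Of 24 genes of the ADAM and matrix metalloproteinase group 18 rose and 1 fell (median 3.44, or 3.22 at the bounds, 16 to 17 higher with an array left out). Mmp12, the macrophage elastase, read 4.67 and 4.50 and was at least 746.5-fold higher, and Mmp8, a collagenase, at least 97.9-fold higher. Mmp3, stromelysin, read 5.83 and 5.81 against -2.95 and -0.72 (log2 7.66, SE 0.68, adjusted p = 0.000588), with a mean of 6.33 in the CD45-negative cells, and the inhibitor Timp1 read 6.91 and 6.79 against -0.33 and 0.24, with a mean of 8.43 there. Timp4, an inhibitor abundant in heart, read 3.38 and 3.03 in ventricle and fell by 7.65. Mmp2, a gelatinase of stromal cells, read 2.63 and 2.77 against 2.40 and 2.87 and did not pass (adjusted p = 0.878).

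Of 21 leukocyte integrins and actin regulators 18 rose and 1 fell, 10 to 11 higher with an array left out. Itgb2, the common beta chain of leukocyte integrins, read 4.63 and 4.86 against -1.28 and -1.68 (log2 6.23, adjusted p = 0.00148). Itgb3, which pairs with the alpha v chain on osteoclasts and platelets, read 3.73 and 3.80 against -0.91 and -0.41. Rac2, a small GTPase of blood cells, rose by 4.96, but its call was lost in each fit that left out an array.

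Of 26 myeloid transcription factors 15 rose and 1 fell, 12 to 13 higher with an array left out. Spi1 read -0.06 and 0.03 and was not well above background in ventricle, at least 30.8-fold higher (adjusted p = 0.000165). Its means of -6.38 in the CD45-negative cells and -7.67 at passage 8 were as low. Tfec, a relative of Mitf found in macrophages, was at least 28.7-fold higher. Runx1, a factor of definitive blood formation, read 1.31 and 1.19 against -4.10 and -3.77 (log2 5.18, adjusted p = 0.000324), and Irf5, which drives inflammatory genes, 2.64 and 2.79 against -1.70 and -1.56. Egr2, a zinc finger factor of macrophages and Schwann cells, rose by 5.65. Pparg, Klf4 and Nr1h3 did not pass, and Cebpb differed by 0.97, just under the fold limit (adjusted p = 0.00843). Irf4 was the gene that fell, a call that leaving out any array removed.

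Among 15 genes of iron handling 8 rose and 3 fell, 5 to 7 higher with an array left out. Slc11a1, the phagosome metal transporter Nramp1, read 4.81 and 5.02 against -0.47 and -0.46 (log2 5.38, adjusted p = 0.0118). Slc48a1, which exports haem from lysosomes, and Steap3, an iron reductase, rose by 3.17 and 3.41. Ftl1, the ferritin light chain, rose by 2.47, whereas the heavy chain gene Fth1 differed by 0.21 without passing (adjusted p = 0.454). Those that fell were Cp, Cd163 and Steap4.

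**Figure D2:**
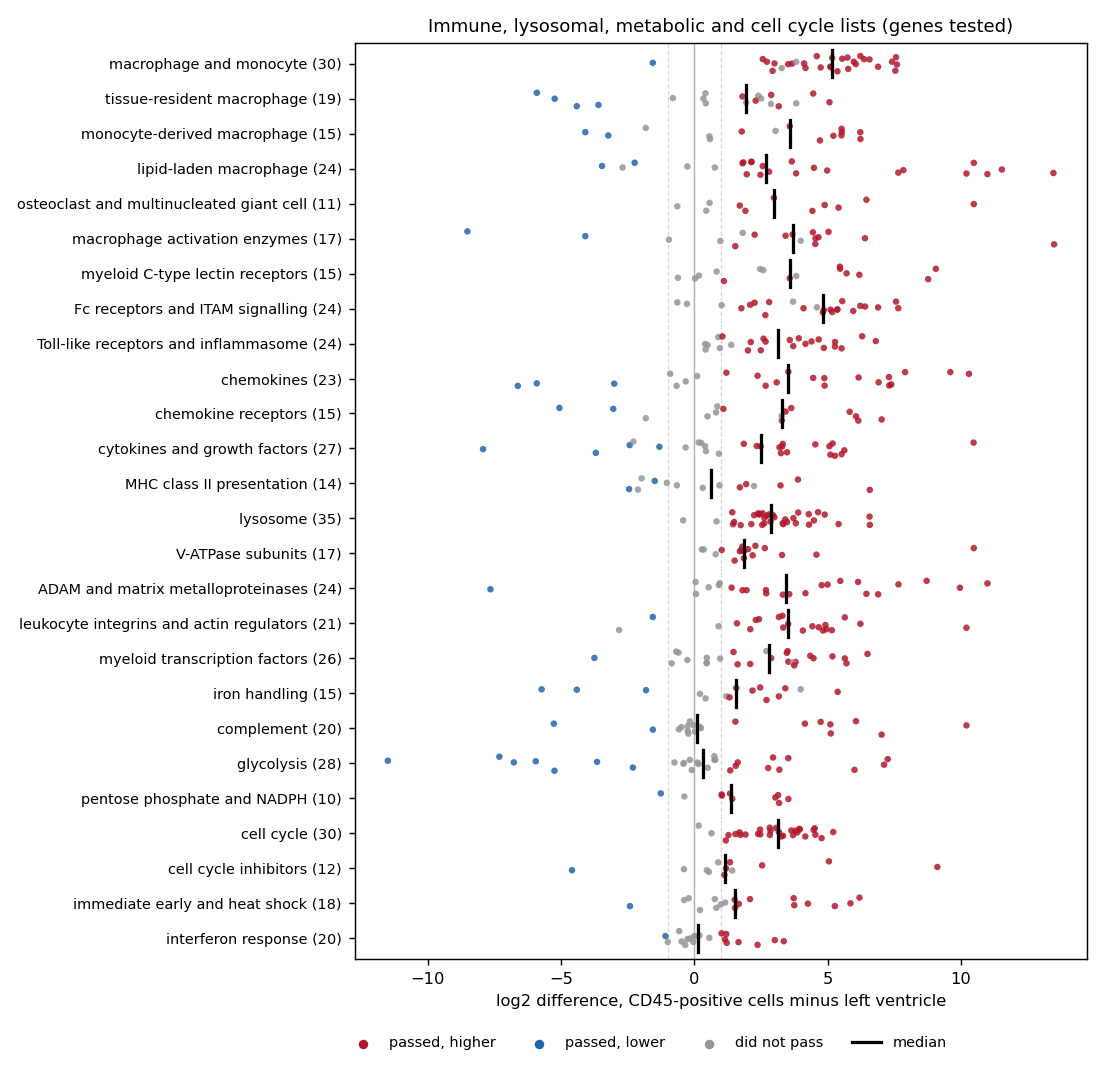
Log2 difference (CD45-positive cells minus ventricle) of every tested member of 26 gene lists of immune function, growth and stress; each point is 1 gene coloured by its call, the black bar the list's median, and dashed lines a log2 difference of 1 in either direction. Medians run from 5.15 for macrophage genes through 2.86 for the lysosome to 0.63 for MHC class II and 0.11 for complement.

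Genes of cell division were higher in the sorted cells. Of 30 cell cycle genes 28 rose and none fell (median 3.12, or 2.96 at the bounds, 25 to 28 with an array left out). Top2a, the topoisomerase that untangles chromosomes, read 0.96 and 1.07 against -2.50 and -4.55 (log2 4.54, SE 0.68, adjusted p = 0.00338). Cdk1, the kinase of mitotic entry, read 1.91 and 1.95 against -1.76 and -3.34, and its partner Ccnb1 1.59 and 1.62 against -2.23 and -3.60. Ventricle replicate 2 was the lower of the pair for each of these 3. Mki67, the Ki-67 antigen and a gene named after its values were seen, read 3.41 and 3.46 against 0.89 and 0.27, below its means of 4.24 in the CD45-negative cells and 4.52 at passage 8. Mcm7 and Tyms, replication genes, differed by 0.64 and 0.16 and did not pass.

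Many genes of mitosis carry the CHR element TTTGAA, at which the DREAM complex holds them down in resting cells. Top2a held 2 matches in the 210 bases before the start, at -179 to -174 and -23 to -18, and had the largest difference among the called genes with one (RefSeq, GRCm38.p6 chr11:99024190-99024399, minus strand; capitals mark the matches, searched on both strands).
Top2a: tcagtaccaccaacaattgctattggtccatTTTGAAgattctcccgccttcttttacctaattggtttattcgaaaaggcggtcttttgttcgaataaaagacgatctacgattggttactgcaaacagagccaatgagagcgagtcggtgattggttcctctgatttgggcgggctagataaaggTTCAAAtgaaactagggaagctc
A match was found in 9 of 25 windows of cell cycle genes (36.0%), beside 17.9% of all windows.

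Of 12 cell cycle inhibitors 6 rose and 1 fell, 3 to 5 higher with an array left out. Cdkn2a, which encodes p16 and p19Arf, read 3.58 and 3.99 against -3.92 and -6.74, with 1 ventricle array above background (adjusted p = 0.000734); the difference of about 9.12 was 7.71 and 10.52 with either ventricle array left out. Its means were 5.30 in the CD45-negative cells and 0.57 at passage 8. Its neighbour Cdkn2b, which encodes p15, read 1.81 and 1.85 against -3.67 and -2.77 (log2 5.05, adjusted p = 0.000241). Cdkn1c, the inhibitor p57, ran the other way at -1.85 and -1.83 against 2.71 and 2.80 (log2 -4.59, SE 0.19, adjusted p = 9.81e-05).

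Of 18 immediate early and heat shock genes, which respond within minutes to handling and growth factors, 10 rose and 1 fell, 7 to 12 higher with an array left out. Fos read 3.95 and 4.01 against -3.45 and -0.97 (adjusted p = 0.00165), and Egr1 4.50 and 4.47 against -0.01 and 0.47. Hspb1, a small heat shock protein abundant in muscle, read 5.11 and 5.20 against 7.32 and 7.81 and fell by 2.41. The part of tissue handling in these values was not tested.

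Of 20 interferon-stimulated genes 8 rose and 1 fell, with a median of 0.13 and 5 to 8 higher with an array left out. Bst2 (tetherin), Oas1a and the chemokine Cxcl10 rose by 3.35, 3.02 and 2.37, while Ifit1 and Ifit3 differed by -0.26 and 0.20 and did not pass. Mx2 was the gene that fell, by 1.08, a call lost whichever array was left out.

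The sarcomere was the far pole of the comparison. All 12 genes of the thick filament and M-band fell, in the fit of all arrays and in each fit that left out an array, with a median of -12.77, or -12.05 with genes at their bounds, beside 19.8% lower over all genes tested. Of 13 thin filament genes 12 fell and 1 rose (median -7.49, 10 lower with any array left out), and of 24 genes of the Z-disc and costamere 22 fell and none rose (median -7.01, or -6.75 at the bounds). The summed signal of the thick filament genes was 0.6327 and 0.6182 in the CD45-positive cells and 4125 and 3813 in ventricle, in multiples of the 75th percentile signal.

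Myl2, the ventricular regulatory light chain, read -4.04 and -4.04 in the cells and 9.40 and 9.41 in ventricle (log2 -13.45, SE 0.65, adjusted p = 0.000126). Myl3, the ventricular essential light chain, read -3.33 and -3.70 against 10.21 and 9.99 (log2 -13.61, SE 0.32, adjusted p = 5.38e-05). Ttn, the giant spring protein titin, was not well above background in the cells and read 7.60 and 7.53 in ventricle, at least 7713-fold lower. These genes were the defining muscle markers, and in the sorted cells they lay at or near background.

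Actc1, cardiac actin, read 10.22 and 9.75 in ventricle and was not well above background in the cells, at least 41190-fold lower (adjusted p = 0.000664). Tnni3, the cardiac inhibitory troponin used as a blood marker of heart damage, read -2.62 and -2.75 against 8.59 and 8.24 (log2 -11.09, SE 0.25, adjusted p = 5.38e-05). Tnnt2 read -0.36 and -0.09 against 9.25 and 9.02. Acta1, skeletal actin, read 0.96 and 1.16 against 5.73 and 5.68, the smallest of these falls. Tpm1, a tropomyosin made in muscle and non-muscle forms, was the exception at 3.15 and 3.25 against 1.02 and 1.43 (log2 1.98, adjusted p = 0.00508). Averaged over all tested Tpm1 probes the difference was -3.003 and passed as lower, so the direction depends on the probe.

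In the Z-disc Tcap, the titin cap, read -4.74 and -5.70 in the cells, with 1 array above background, and was bright on both ventricle arrays (log2 -14.07). Myoz2, a calcineurin-binding protein of muscle, read 7.48 and 7.61 in ventricle, at least 7601-fold lower in the cells, and Des, the intermediate filament desmin, -2.97 and -2.80 against 5.15 and 5.41 (log2 -8.17, adjusted p = 0.00111). Ankrd1, a stretch-induced protein also made by non-muscle cells, read 5.32 and 5.32 against 6.30 and 7.66 (log2 -1.66, adjusted p = 0.0276), a call kept in 1 of 4 fits with an array left out. Synpo2l and Cmya5 did not pass.

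Promoters of muscle genes are bound by TEAD factors at the M-CAT element CATTCC, by SRF at the CArG box and by MEF2 at an element of 10 bases. The MEF2 element was searched as a palindrome that opens with CTA and, after 4 further bases of any kind, closes with the reverse complement of those letters. For each element the called gene with the largest difference and a match in the 210 bases before its start is shown, on the minus strand in GRCm38.p6 (RefSeq), with the match in capitals: Myh6 for M-CAT (chr14:54966608-54966817, the capitals being the other strand's letters), Actc1 for the CArG box (chr2:114052876-114053085) and Myoz2 for MEF2 (chr3:123034988-123035197).
Myh6: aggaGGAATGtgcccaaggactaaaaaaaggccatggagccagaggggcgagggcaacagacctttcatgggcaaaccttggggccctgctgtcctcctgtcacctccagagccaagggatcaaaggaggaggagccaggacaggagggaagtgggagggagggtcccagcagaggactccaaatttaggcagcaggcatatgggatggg
Actc1: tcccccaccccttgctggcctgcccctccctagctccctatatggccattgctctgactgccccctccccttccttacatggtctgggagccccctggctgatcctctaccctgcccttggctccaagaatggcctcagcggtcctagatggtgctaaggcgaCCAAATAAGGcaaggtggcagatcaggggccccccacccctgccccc
Myoz2: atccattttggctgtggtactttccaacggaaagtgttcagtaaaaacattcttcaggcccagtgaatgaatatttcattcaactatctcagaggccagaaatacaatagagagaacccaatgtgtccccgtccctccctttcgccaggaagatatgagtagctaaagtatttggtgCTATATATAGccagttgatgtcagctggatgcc
Searched on both strands, M-CAT letters were found in 5 of 13 windows of thick filament genes (38.5%) and 6 of 16 of thin filament genes (37.5%), beside 14.7% of all windows. The CArG box was found in 15.4% and 18.8% of those windows and in 19.2% of 26 windows of Z-disc genes, beside 1.63% of all windows. The Z-disc windows held M-CAT letters in 23.1%. MEF2 letters were found in 26.9% of the Z-disc windows, 15.4% of the thick filament windows and 0 of the 16 thin filament windows, beside 3.69% of all windows. These windows hold only the bases near the start and say nothing of enhancers.

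The machinery of beating was low in the sorted cells as a group. Of 21 calcium handling genes 19 fell and none rose (median -4.88, or -4.67 at the bounds). Of 20 ion channel genes 17 fell (median -5.60, or -4.57 at the bounds, 16 to 18 with an array left out), and of 15 genes of the intercalated disc 14 fell (median -5.01, or -4.17 at the bounds, 12 to 14 with an array left out). Atp2a2, the calcium pump SERCA2 and a gene named after its values were seen, read 0.79 and 0.84 against 8.85 and 8.80 (log2 -8.01, SE 0.19, adjusted p = 5.38e-05). It stayed well above background in the cells, whereas its muscle partner Pln, phospholamban, did not and was at least 5845-fold lower. Ryr2, the calcium release channel, was at least 1737-fold lower. Slc8a1, the sodium-calcium exchanger, did not pass (difference 0.87), and over the mean of its probes it differed by -1.512.

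Among potassium channel genes Kcnj5 was at least 348-fold lower and Kcnd2 at least 270-fold, while for Kcnip2 and Kcnj11 the bounds were 156-fold and 106-fold. The pacemaker channel gene Hcn2 and the potassium channel gene Kcna5 did not pass. Dsp, the desmosome protein desmoplakin, read -5.34 and -5.36 in the cells, with 1 array above background, and 5.58 and 5.96 in ventricle (log2 -11.12, adjusted p = 5.7e-05). Nexn, an actin-binding protein, read 0.81 and 0.91 against 6.40 and 6.31, and Gja5, an atrial and vascular connexin, differed by -0.41 without passing.

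Of 25 cardiac transcription factors 19 fell and 1 rose (median -3.70, or -2.97 at the bounds). Nkx2-5, the core factor of the cardiac lineage, read 4.19 and 4.55 in ventricle and was not well above background in the cells, at least 840-fold lower, and Myocd, a coactivator of SRF in muscle, at least 257-fold lower. Gata4, also present in stromal cells of the heart and named after its values were seen, read 0.68 and 1.07 against 2.62 and 2.99 and fell by 1.93. Mef2a, which macrophages express too, rose by 1.13 (3.68 and 3.55 against 2.71 and 2.27, adjusted p = 0.0115), a call kept in 1 of 4 fits with an array left out. Over the mean of its tested probes the Mef2a difference was 0.108 and did not pass (adjusted p = 0.656). Tbx20, Mef2c, Mef2d and Rxrg did not pass.

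Although the sorted cells came from atrium, genes of atrial muscle such as Nppa and Myl7 were not higher in them. Of 16 atrial genes 8 fell and 2 rose. The count of lower genes was 12 without ventricle replicate 1, 6 without replicate 2 and 5 without CD45-positive replicate 1 or replicate 2. Nppa, the atrial natriuretic peptide, read -2.25 and -2.16 in the cells against 5.95 and 8.78 in ventricle (log2 -9.57, SE 0.86, adjusted p = 0.000605). Myl7 was not well above background in the cells and at least 102.5-fold lower (adjusted p = 0.0308), with its ventricle replicates at -2.55 and 5.21. Myl4 read 0.19 and 0.20 in the cells, below both ventricle values, and did not pass (adjusted p = 0.164). The 2 genes that rose are not muscle-restricted: Dhrs9, a retinol dehydrogenase, at 0.22 and 0.54 and at least 39.0-fold higher, and Fbln2, a matrix protein, at 6.35 and 6.40 against 3.71 and 4.51.

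The summed signal of the atrial genes was 108.1 and 912.1 in ventricle replicates 1 and 2. That of the 10 adipocyte genes on the array was 155.5 and 261.3, while the thick filament sums of 4125 and 3813 were close. A sum is weighted to its brightest members. Of single fat genes, Cfd read 0.17 and 3.31 and Cidec -2.12 and 1.03 in ventricle replicates 1 and 2. Atrial genes and these fat genes were thus higher together in ventricle replicate 2. Their part in the calls is given here by the counts without that array. Of 9 genes of natriuretic peptides and wall stress 6 fell, 4 to 5 with an array left out. Nppb, the B-type natriuretic peptide, read -4.38 and -4.80 against 4.38 and 4.69 (log2 -9.13, adjusted p = 0.000107), with 1 array of the cells above background. Ccn2, a matrix regulator, read 6.05 and 6.11 in the cells and 4.62 and 6.88 in ventricle, and did not pass.

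**Figure D3:**
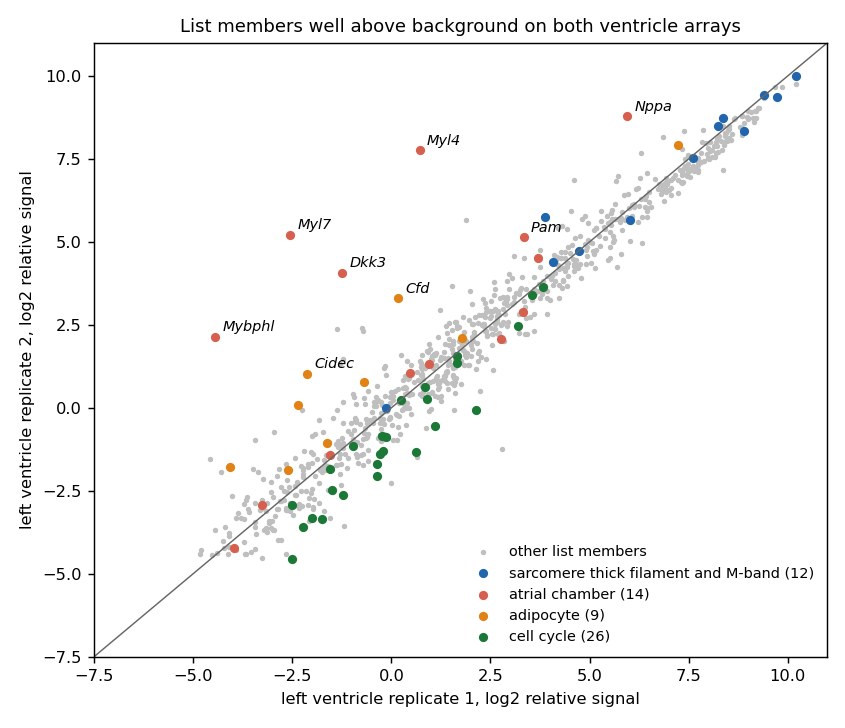
Log2 relative signal of members of the gene lists in ventricle replicate 1 (horizontal axis) against replicate 2 (vertical axis), with 12 thick filament, 14 atrial, 9 adipocyte and 26 cell cycle genes above background on both arrays coloured. Thick filament genes lie close to the line of equality, Myl7 (-2.55 and 5.21), Myl4 (0.72 and 7.76) and other atrial genes lie above it, and cell cycle genes lie mostly below it.

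**Figure D4:**
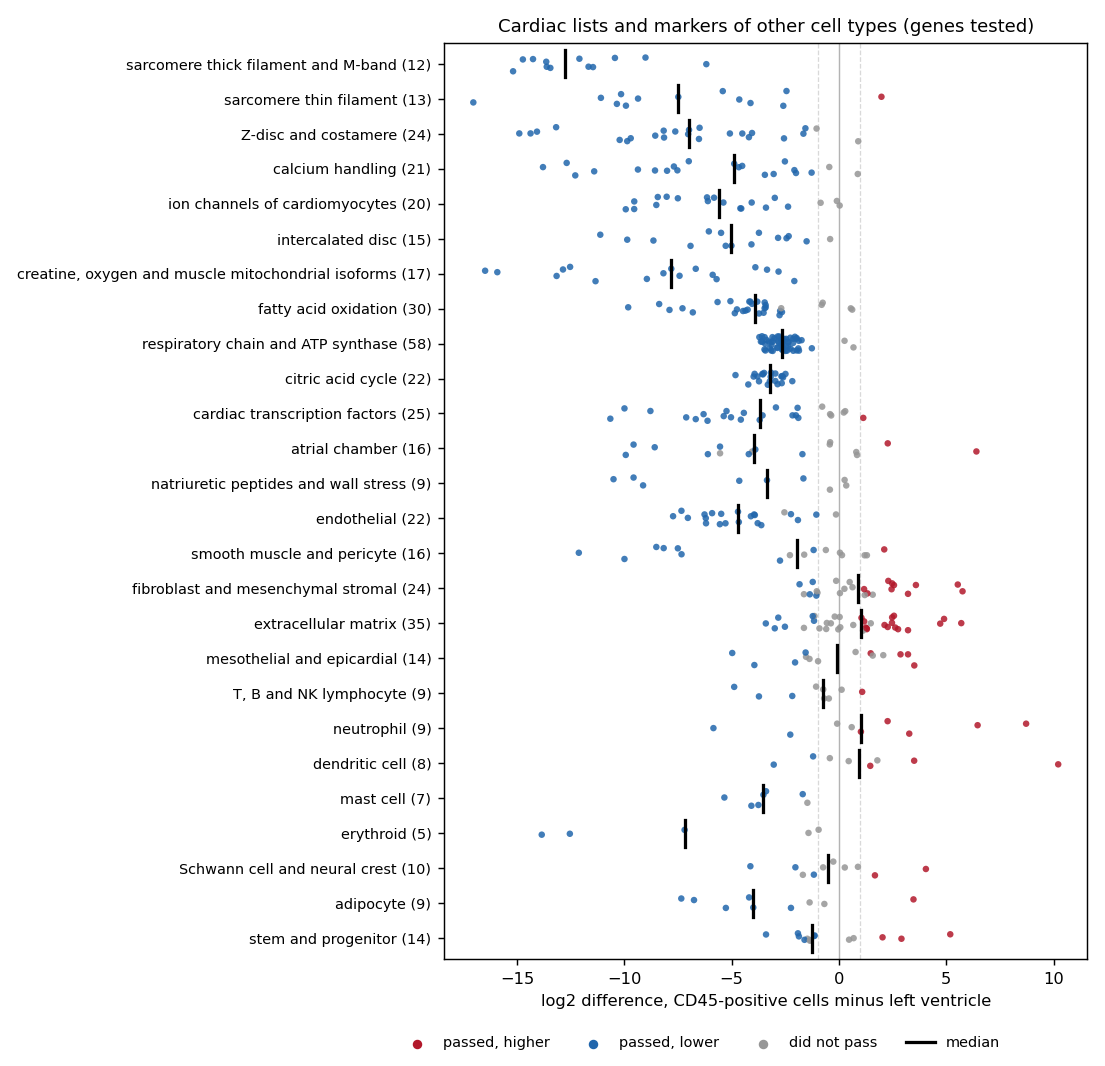
Log2 difference (CD45-positive cells minus ventricle) of every tested member of 26 gene lists of the cardiomyocyte, metabolism and other cell types; each point is 1 gene coloured by its call, the black bar the list's median, and dashed lines a log2 difference of 1 in either direction. Medians run from -12.77 for the thick filament to -2.64 for the respiratory chain, with extracellular matrix genes at 1.05.

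Fuel metabolism separated the groups gene by gene. All 22 citric acid cycle genes tested fell (median -3.20) and 56 of 58 genes of the respiratory chain and ATP synthase fell (median -2.64), the same counts with any array left out. Of 30 fatty acid oxidation genes 25 fell and none rose (median -3.93), and all 17 genes for creatine kinase, myoglobin and muscle mitochondrial isoforms fell. Mb, the oxygen store myoglobin, read 9.67 and 9.67 in ventricle and was not well above background in the cells, at least 33230-fold lower (adjusted p = 1.15e-05). Cyc1, cytochrome c1, read 3.74 and 3.74 against 7.62 and 7.29 (log2 -3.71), and Idh2, mitochondrial isocitrate dehydrogenase, 4.54 and 4.42 against 8.68 and 8.75 (log2 -4.23). Genes of the shared chain thus fell by about 3 log2 units and those of muscle-specific proteins by far more.

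Ppargc1a, a coactivator of mitochondrial biogenesis, read 4.01 and 3.26 in ventricle and was at least 506-fold lower in the cells. Pdk4, which shuts pyruvate out of the mitochondrion, read -0.44 and -0.35 against 6.84 and 8.16 (log2 -7.90), and Fabp3, the heart fatty acid carrier, 1.67 and 1.69 against 8.99 and 8.95 (log2 -7.29). Ppara, the nuclear receptor for fatty acids, differed by -0.81 and did not pass. Ucp3, a muscle uncoupling protein, differed by 0.61 without passing, and by -3.757 over the mean of its probes.

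NRF1 is a transcription factor of respiratory chain genes. Atp5k, a subunit of ATP synthase, read 5.29 and 5.21 against 8.17 and 7.91 (log2 -2.79, SE 0.23, adjusted p = 0.000457). It had the largest difference among respiratory genes with the NRF1 palindrome, GCGCA followed by its reverse complement, in the 210 bases before the start (RefSeq, GRCm38.p6 chr5:108434400-108434609, minus strand, match in capitals).
Atp5k: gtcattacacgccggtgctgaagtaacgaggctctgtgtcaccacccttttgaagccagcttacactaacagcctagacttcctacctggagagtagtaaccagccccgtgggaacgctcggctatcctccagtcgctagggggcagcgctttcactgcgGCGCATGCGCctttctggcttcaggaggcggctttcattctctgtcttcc
The palindrome was found in 4 of 50 windows of respiratory chain genes (8.0%), those of Uqcrc1, Cox6a1, Atp5g2 and Atp5k, beside 0.971% of all windows. Of these 4 genes Cox6a1 did not pass and the other 3 fell.

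For 8 steps that striated muscle and other tissues carry out with different genes, the muscle form fell in each pair and the other form rose in 3. Slc2a4, the insulin-responsive glucose carrier, read -4.95 and -4.57 in the cells against 6.93 and 6.55 (log2 -11.50, SE 0.80, adjusted p = 0.000298). Slc2a1, the general glucose carrier, read 4.70 and 4.63 against 0.96 and 1.31 (log2 3.53, SE 0.21, adjusted p = 0.000203). Enolase showed the same opposition, with log2 differences of -7.31 for muscle Eno3 and 1.63 for the general Eno1, as did phosphoglycerate mutase, with Pgam2 at 0.04 and -0.14 against 7.05 and 6.40 and Pgam1 at 7.13 and 7.17 against 3.94 and 3.98.

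In the other pairs the general form did not pass or fell less. Pfkm fell by 5.25 while Pfkl differed by 0.75 (adjusted p = 0.139). Cpt1b, the muscle gate for fatty acids into mitochondria, fell by 8.38 and Cpt1a differed by 0.55 (adjusted p = 0.257). The muscle cytochrome oxidase subunits Cox6a2, Cox7a1 and Cox8b had log2 differences of -7.43, -8.18 and -12.86. Their general counterparts Cox6a1 and Cox8a, which were the 2 respiratory genes that did not pass, differed by 0.67 and 0.26, and Cox7a2 fell by 1.87. A ninth pair is lactate dehydrogenase, where Ldhb, the heart subunit, fell by 5.95, while Ldha, the subunit of skeletal muscle and many other tissues, read 8.11 and 7.90 against 8.15 and 7.55 and did not pass (adjusted p = 0.664). Differences are compared here, not levels, because probes differ in brightness.

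**Figure D5:**
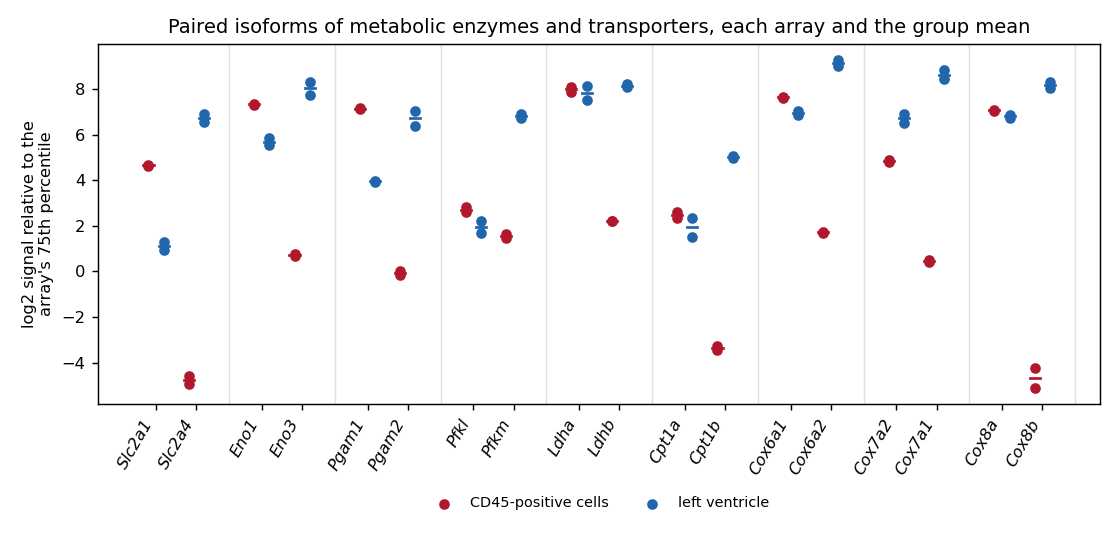
Log2 relative signal of 9 pairs of genes for the same step, 8 of them a general form and a muscle form and 1 the lactate dehydrogenase subunits, on the 2 CD45-positive arrays and the 2 ventricle arrays; each point is 1 array, and colours are to be compared within a gene only. The muscle forms Slc2a4, Eno3, Pgam2 and Cpt1b are higher in ventricle, and Slc2a1 (4.70 and 4.63 against 0.96 and 1.31) and Pgam1 are higher in the cells.

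Over 28 glycolysis genes 10 rose and 7 fell, with a median of 0.33, so the pathway had no common direction. Slc16a3, which exports lactate, read 5.08 and 5.14 against -1.02 and -0.78 (log2 6.01, adjusted p = 8.11e-05). Hk3, a hexokinase of white blood cells, read 4.64 and 4.82 against -1.99 and -3.06 (log2 7.26, adjusted p = 0.0321, lost in each fit that left out an array). Hk1, Hk2 and Gpi1 did not pass. Of 10 genes of the pentose phosphate route and NADPH supply 8 rose and 1 fell (5 to 7 higher with an array left out): G6pdx, the first enzyme, read 3.83 and 3.88 against 0.57 and 0.78, and Pgd, its successor, 5.11 and 5.25 against 2.05 and 2.02. Me1, malic enzyme, fell by 1.26.

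Markers of other cell types in the heart differed by type. Those of endothelium, mast cells, red cells and fat were mostly lower in the sorted cells. Smooth muscle and pericyte genes were lower in part, and the other lists were mixed. Of 22 endothelial genes 20 fell and none rose (median -4.69, or -4.39 at the bounds, 16 to 18 with an array left out). Cdh5, the endothelial cadherin, read -2.71 and -3.14 against 2.96 and 3.59 (log2 -6.21, adjusted p = 0.000285), and Aqp1, a water channel of capillaries, 0.41 and 0.25 against 6.27 and 6.91. Kdr, the main VEGF receptor, read 3.25 and 2.88 against 3.59 and 2.83 and did not pass (adjusted p = 0.761). Of 16 smooth muscle and pericyte genes 8 fell and 1 rose (median -1.95). Rgs5, a pericyte marker, was at least 1222-fold lower, and Acta2, smooth muscle actin, read 4.99 and 5.06 against 6.32 and 4.96 and did not pass (adjusted p = 0.304).

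Some fibroblast and matrix genes were higher in the CD45-positive cells than in ventricle, and others were lower or did not pass. Of 24 fibroblast genes 10 rose and 4 fell (median 0.90, 8 to 11 higher and 1 to 3 lower with an array left out), and of 35 matrix genes 16 rose and 6 fell (median 1.05, 11 to 13 higher and 1 to 3 lower). Col1a1, the main chain of fibrillar collagen, read 7.08 and 6.87 against 3.87 and 3.66 (log2 3.21, adjusted p = 0.000356), and Col3a1 6.77 and 6.89 against 4.79 and 3.93. Their means in the CD45-negative cells were 8.16 and 8.34. The summed signal of the 24 fibroblast genes was 1139 and 1109 in the CD45-positive cells and 585 and 863.4 in ventricle. How much of any result above came from stromal cells or their RNA in the sorted samples was not tested.

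Not every stromal gene was high. Pdgfra, a receptor that marks cardiac fibroblasts, read 1.91 and 2.03 against 1.62 and 2.58 without passing (adjusted p = 0.795) and had a mean of 4.45 in the CD45-negative cells. Dcn, the proteoglycan decorin, read 6.61 and 6.67 against 7.39 and 8.34 (log2 -1.23, kept in 1 of 4 fits with an array left out). The basement membrane collagens Col4a1 and Col4a2 differed by 0.03 and 0.06 and did not pass, and Lama2, a laminin chain around muscle fibres, read 1.33 and 1.44 against 4.42 and 4.34 and fell by 2.99. Lox, which cross-links collagen, read 2.56 and 2.70 against -4.57 and -1.55 (log2 5.69).

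Of 14 mesothelial genes 4 rose and 4 fell, and no more with an array left out, beside 18.3% higher and 19.8% lower over all genes tested. Upk1b, a uroplakin of the epicardium, read 0.15 and -0.02 against -3.44 and -3.44, and Lrrn4, Tbx18 and Bnc1 rose with it, while Muc16, Krt7, Krt8 and Krt18 fell. With normexp background correction Bnc1 differed by 0.488 (adjusted p = 0.169) and Krt7 by -0.939, under the fold limit, as was Krt7 in the authors' table (-0.772). The median of -0.10 turned to 0.71 without CD45-positive replicate 2 and to 0.06 without ventricle replicate 1. Wt1, an epicardial factor, did not pass (adjusted p = 0.197).

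Markers of other white blood cells were mixed, and their counts are to be read against 18.3% higher and 19.8% lower over all genes tested. Of 9 lymphocyte genes tested 1 rose and 3 fell (0 to 1 higher and 2 to 5 lower with an array left out), and the summed signal was 14.05 and 13.36 in the cells against 14.97 and 20.28 in ventricle. Nkg7, a granule protein of cytotoxic cells, was the gene that rose, by 1.08 (2.00 and 2.10 against 1.19 and 0.74), and Cd79b, Cd3d and Gzma fell. Among 9 neutrophil genes Mmp8, Mmp9, S100a8, Mpo and Camp rose (2 to 4 genes with an array left out), while S100a9, the partner of S100a8 in calprotectin, was not well above background in the cells and at least 11.4-fold lower, and Ly6g, the neutrophil surface marker, fell by 2.27. The Mpo call was lost with normexp background correction (0.716, adjusted p = 0.0567). Of 8 dendritic cell genes Itgax, Batf3 and Fscn1 rose and Ccr7 and Zbtb46 fell (2 to 3 and 1 to 2 with an array left out); Xcr1, Clec9a, Cd209a and Itgae were not well above background in either group.

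Mast cells also carry c-kit, and their genes were lower: of 7 tested 6 fell and none rose (3 to 6 with an array left out). Cpa3, the mast cell carboxypeptidase, was not well above background in the cells and at least 10.0-fold lower. Of 5 erythroid genes 3 fell (3 to 5 with an array left out), with summed signals of 1.158 and 1.129 in the cells and 397.2 and 267.4 in ventricle. These were Hba-a1, Hbb-b2 and Alas2, and adult globin genes within the alpha or within the beta cluster are near-identical copies. Of 9 adipocyte genes 6 fell and 1 rose (4 to 6 lower with an array left out), and Cidec, a lipid droplet protein, was at least 27.9-fold lower.

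Of 10 markers of Schwann cells and the neural crest 2 rose and 3 fell, and no more with an array left out. Over all genes tested 18.3% rose and 19.8% fell, so these counts are no trait of the markers. Mbp, myelin basic protein, read 3.23 and 3.19 against -1.21 and -0.47 (log2 4.05), and Ngfr, the low-affinity neurotrophin receptor, rose by 1.67. Kcna1, a potassium channel of nerve, and Sox10, the defining factor of that lineage, had log2 differences of -4.13 and -1.17.

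The sort on c-kit makes the stem and progenitor genes of interest. Of 14 tested 3 rose and 6 fell, with a median of -1.25, and with an array left out 1 to 3 rose and 3 to 4 fell. Runx1, Lmo2 and Myc rose. Cd34, a sialomucin of progenitors and endothelium, read 3.34 and 3.35 against 5.40 and 5.12 (log2 -1.91), and Ly6a, the Sca-1 antigen, had a log2 difference of -1.87. Gata2, Abcg2, Nanog and Lin28a fell as well. Sox2, Pou5f1 and Isl1, a factor of cardiac progenitors, were not well above background in either group.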

How the data were processed

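RNA of 8 mouse heart samples was hybridised to 1-colour Agilent arrays. The deposited scanner files hold the processed signal, an intensity on a linear scale that the scanner software has corrected for background, and flags for signal well above background; Agilent Feature Extraction 10.7 is named in the submitters' processing notes. A further table deposited by the authors holds log2 values, and how these were normalized is not stated; its array medians were 6.261 to 6.282.

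Spots of a probe were averaged after control spots and 167 to 248 outlier spots per array were left out, and log2 of the signal minus that of each array's 75th percentile was taken. Of the probes, 27235 matched RefSeq by accession. A gene was represented by its brightest probe over the 8 arrays, and 11199 genes had several. limma 3.58.1 (R 4.3.3; lmFit, eBayes) was fitted to all 8 arrays with a mean per group, 4 residual degrees of freedom. Genes well above background on both arrays of a group were tested. Pass means a Benjamini-Hochberg adjusted p under 0.05 and a log2 difference of at least 1. With 2 samples a group an exact permutation test cannot go below 0.333, and the number of arrays limits the precision. Data were simulated with the ventricle means on all 8 arrays and normal noise at each gene's spread pooled over the 4 groups. Of 23067 genes the fit called 66 of 100 given a log2 change of 2, 87 of 100 given one of 4, and 6 unchanged genes. The share changed was far below the 38.1% called in the data, so these rates do not carry over to the comparison.

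The members and the 52 gene lists were chosen with earlier results of these data known. The genes named were the sort genes, the 6 markers, the 15 highest and 15 lowest passing genes above background on all 4 arrays, the 10 highest bounds per direction, and per list up to 6 passing genes a direction, up to 4 not passing, and those behind a count of 5 or fewer. Clone names were skipped. A few genes that the rule picks are not reported here. Genes outside that rule (Adgre1, Tyrobp, Csf1r, Mki67, Atp2a2, Gata4, Naglu, Atp5k, Eno1, Ldha, Cox6a2, Cox7a1, Cox7a2 and genes given without a value) were named after their values were seen. Promoter windows of 300 bases, 250 before and 50 after the start, came from RefSeq (GRCm38.p6). Probe positions are those of the array files (mm9). The labels do not state whether replicate numbers pair the samples, and the main fit used no pairing. Alternatives covered the normalization, background correction, detection filter, choice of probe, arrays fitted, thresholds and left-out arrays.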

Additional observations from a re-analysis of the deposited data

How the results depend on the processing

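The main counts were 4225 higher and 4574 lower genes. Requiring a log2 difference of 2 gave 2147 and 2659, fewer by construction. Leaving out an array of either group gave 2685 to 3562 higher and 2966 to 3980 lower genes, from fewer samples. The scanner values scaled by quantiles gave 4697 and 4297, normexp background correction 3571 and 4110, and, from the authors' table, 4337 and 4095 were called, and the share of higher genes among called genes ran from 44.67% to 52.22% over the alternatives. The median of all genes, -0.02, moved by more than 0.1 with no detection filter (-0.226), and was -0.113 under normexp and -0.115 without ventricle replicate 2. Normexp also drew list medians towards 0, to 1.06 for cytokines, 2.06 for C-type lectin receptors and -2.74 for the intercalated disc, and 13 of 500 named genes lost their call under it. A replicate block gave 4155 and 4470. Deviations of same-numbered samples correlated at -0.064 to 0.227. Such correlations cannot show whether same-numbered samples share an animal or a preparation, and the labels do not state it. Under the mean over all tested probes of a gene 7 named genes reversed: Itgam 1.677, Pirb 3.515, Cxcl12 1.333, Tpm1 -3.003, Slc8a1 -1.512, the log2 difference of Hcn2 -1.005 and Ucp3 -3.757, because probes of these genes disagree. Of 2471 called genes with several tested probes, 76 had a probe of the opposite call and 931 a probe not of the same call. Signal over background limits the dim side of genes given as bounds, and those bounds hold for the scanner's processed signal as scaled here. Many of the differences given as bounds were smaller than the bound under other processing. The log2 difference of Il1b was 3.968 in the authors' table and 2.919 under normexp, and that of Nkx2-5 was -8.481 and -7.724. The log2 difference of Arg1 was 9.661 under normexp, and that of Actc1 was -14.077 in the authors' table.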
